A study of Mus musculus with 148 samples.

Results

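MHC-II monocytes were the monocytes of the lung and tumor microenvironment that carried high levels of the transcripts for class II antigen presentation. They were taken as all cells that the deposited annotation of wells names as the Mon_MHC-II population, which the authors defined by clustering and marker genes. There were 771 such cells among 23425 annotated immune cells (3.29%) and among 6308 monocytes (12.2%), and 61 of 63 samples held at least 1. A sample is 1 tissue status of 1 mouse. Expression was described on the 23 samples with at least 10 MHC-II monocytes, which held 607 of the cells, by summing their UMIs (unique molecular identifiers, which count each captured mRNA molecule once). The other 164 cells entered the shares and the per-cell values. No well name occurred on more than 1 plate (0 wells).

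All mice were female PA-GFP C57BL/6 mice, which carry a green fluorescent protein that light switches on in every host cell. Control mice gave the Normal lungs (3 samples). The others received EO771-tdTomato breast cancer cells in the right inguinal mammary gland at 8 weeks of age. Pre-MET lungs (3 samples) and Primary tumors (4 samples) came from tumor-bearing mice, and mice 8, 9 and 10 gave both tissues. The tumor was resected after 3 weeks in the remaining mice, which were then followed by weekly CT. Mice that developed no metastasis gave the Relapse-free lungs (6 samples). Mice with metastases gave lung sections with lesions (MET, 13 samples), sections without a visible lesion (Distal normal tissue, 14 samples) and photoactivated regions at the centre (MET Core, 13 samples) or the rim of a lesion (MET Invasive margin, 7 samples). Sorting was on CD31-CD45+ cells, or on CD31-GFP+ cells for core and margin (with CD45 for the core of mouse 17). The Relapse-free lungs of mice 6 and 7 also had gates on photoactivation. Part of their cells came from a GFP-positive gate, which gave 22 MHC-II monocytes, and part from a GFP-negative CD45+ gate. EO771 is 1 cell line, and tissue without visible red fluorescence may still have held tumor cells that had lost tdTomato.

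Monocytes are released from the bone marrow in a classical form with high Ly6C, and a part of them matures into patrolling monocytes that stay in the vessels. Class II molecules are heterodimers of an alpha and a beta chain that present peptides from endocytosed proteins to CD4 T cells. The invariant chain, encoded by Cd74, occupies their groove until H2-DM exchanges the remaining fragment for a peptide, and the transactivator Ciita switches the whole gene group on. Monocytes that enter tissue can express this machinery, which links them to dendritic cells and to many macrophages.

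The label held on its 3 markers. H2-Ab1, the class II beta chain, was the most abundant transcript over all MHC-II monocytes at 17051 CPM (UMIs of a gene per 1000000 UMIs of the population or sum), Cd74 was the 5th at 10423 CPM, and H2-Aa, the alpha chain that pairs with H2-Ab1, was the 11th at 6659 CPM. Between them stood Lyz2, the lysozyme of myeloid cells, which was the 3rd at 16219 CPM. These ranks pool the UMIs of all cells and so weigh the deep Primary tumors most. As medians over the 23 sums H2-Ab1 was at 12170 CPM, H2-Aa at 5424 and Cd74 at only 2153 CPM, below Lyz2 at 14911 CPM and Tmsb4x, an actin-binding peptide, at 18916 CPM. Every cell was also thinned to 500 UMIs so that populations of different depth could be set side by side. H2-Ab1 was then seen in 91.2% of MHC-II monocytes (95% Wilson interval 89.0 to 93.0), H2-Aa in 78.3% and Cd74 in 72.8% (69.5 to 75.8). Without thinning the shares were 98.1% for H2-Ab1 and 89.4% for Cd74. Populations that should lack H2-Ab1 gave the background, which was 6.71% in CD4 T cells and 5.88% in NK cells at median depths of 933.5 and 986.5 UMIs per cell, against 2166 in MHC-II monocytes. The other monocyte genes were present as well. Lyz2 was seen in 94.7% of thinned MHC-II monocytes, Plac8 in 62.1%, the growth factor receptor Csf1r in 25.6% and Ly6c2, which encodes the classical marker Ly6C2, in 23.4%. Several defining markers of other class II cells were rare, with the cDC2 marker Cd209a in 1.56% (19.6% in cDC2), the complement gene C1qa in 2.20% (53.6% in Mac Cd81), the B cell gene Cd79a in 0.130% (26.5% in B cells) and Ccr7 in 0.389%. Genes of macrophages were not all rare, since Apoe was seen in 36.2% (57.2% in Mac Cd81 and 15.6% in Mon Fn1) and C1qb in 4.54% (81.2% in Mac Cd81). Genes of the cDC1 list were not all rare either, since Cst3 was the 26th most abundant transcript at 3363 CPM. The cDC1 marker Xcr1 was seen in at most 0.439% of the thinned MHC-II monocytes of a status (Primary). Siglech, the marker of plasmacytoid dendritic cells, had a UMI in 0 of 771 thinned cells, which allows a share of cells with a UMI at this depth of up to 0.389% (3 of 771), against 68.5% of plasmacytoid cells. These intervals and the limits that a count of 0 allows cover counting error only, and the genes that defined the cluster are given as a description without a test.

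The classical class II genes lie together on mouse chromosome 17 (build mm10), with H2-Ab1 at chr17:34257689-34269419, H2-Aa at chr17:34282744-34287823 and H2-Eb1, the other beta chain, at chr17:34305867-34316674. As these genes define the population, the 150 bases upstream of the annotated start are shown for H2-Aa (minus strand, chr17:34287824-34287973) and H2-Eb1 (plus strand, chr17:34305717-34305866), from RefSeq on GRCm38.p6. Of the 10 class II genes that passed the count filter 7 had an entry in the RefSeq promoter table. Capitals mark ATTGG, the reverse complement of the CCAAT box, on either strand, and TAGNAAC, letters of the X box of class II promoters, on either strand.
H2-Aa: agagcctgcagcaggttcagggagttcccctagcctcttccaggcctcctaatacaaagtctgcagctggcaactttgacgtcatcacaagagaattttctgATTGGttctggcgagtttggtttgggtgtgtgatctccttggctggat
H2-Eb1: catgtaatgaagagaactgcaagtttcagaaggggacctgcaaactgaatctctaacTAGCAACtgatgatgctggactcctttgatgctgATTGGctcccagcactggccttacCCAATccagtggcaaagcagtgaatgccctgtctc
The H2-Eb1 window held TAGCAAC 93 bases before the start, ATTGG at 59 bases and CCAAT at 35 bases, and the H2-Aa window held ATTGG at 48 bases and no TAGNAAC. Among 32851 windows of the same length 24.5% held ATTGG and 6.20% held TAGNAAC, so that a match is a description of these letters and not of a bound factor.

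Class II transcripts varied widely among the MHC-II monocytes themselves. With 500 UMIs kept per cell, the 4 genes H2-Ab1, H2-Aa, H2-Eb1 and Cd74 together gave a median of 12 UMIs, with 3 at the 10th percentile and 35 at the 90th. At least 10 such UMIs were found in 58.9% of the cells, and 13 cells (1.69%) had none. The medians were 0 in the other monocyte populations, Mon Fn1, Mon Ace and Mon Thbs1, although the 90th percentile of Mon Thbs1 was 11.2 UMIs, inside the range of the MHC-II monocytes. B cells had a median of 11, Mac Cd81 of 17, cDC1 of 20 and cDC2 of 21. Migratory dendritic cells had a median of 3 and plasmacytoid ones of 2. The median of MHC-II monocytes was thus near that of B cells and below those of cDC1 and cDC2 in this readout, and the 10th to 90th percentile ranges of these populations overlapped.

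**Figure D1:**
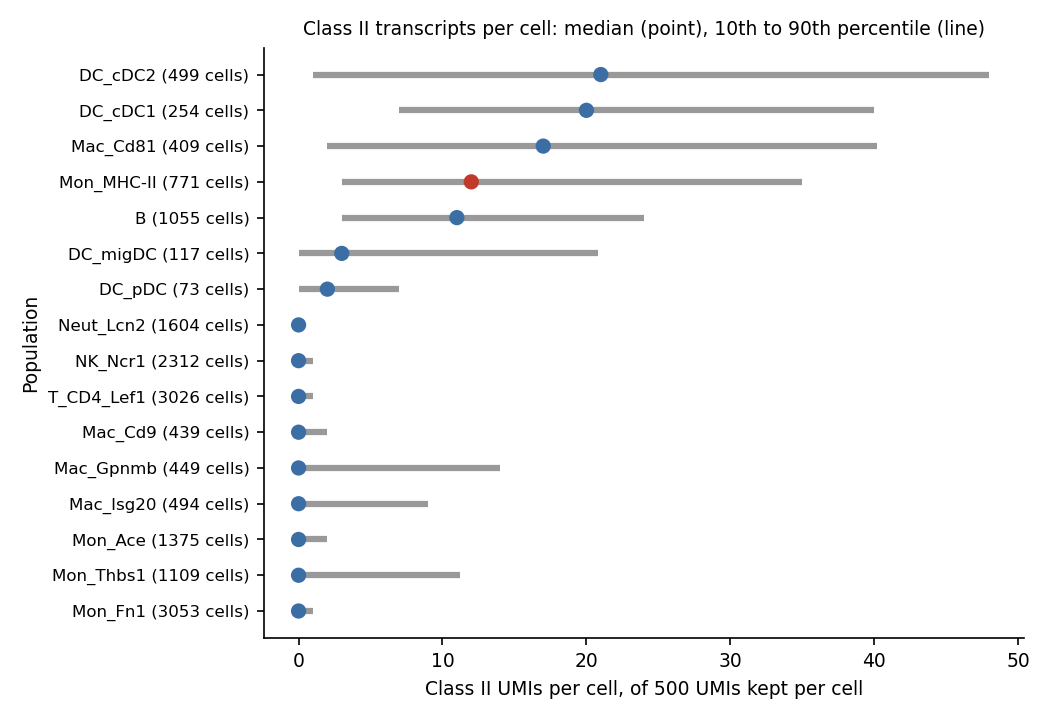
Class II UMIs per cell (H2-Ab1, H2-Aa, H2-Eb1 and Cd74 summed) of 500 UMIs kept per cell, for MHC-II monocytes (red) and 15 other populations (blue). Points are medians over cells and lines run from the 10th to the 90th percentile. The MHC-II monocytes have a median of 12 and a range of 3 to 35, while the 3 other monocyte populations have a median of 0.

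Beside the class II genes, MHC-II monocytes differed from the other monocytes of the same samples in genes of the classical and the patrolling state. These values are mean log2 ratios of CPM + 1 over samples with at least 10 cells of both populations, and they describe populations that were clustered on these genes. Against Mon Fn1, which express fibronectin (22 samples), the highest ratios belonged to H2-Eb1 at 7.09 ± 2.32 (SD), H2-Aa at 6.84 ± 2.11, H2-Ab1 at 6.19 ± 1.20, Ciita at 4.65 ± 2.82 and Cd74 at 4.62 ± 1.00. Ciita was higher in 21 of 22 samples and the other 4 genes in 22 of 22. C1qb (3.41 ± 3.36), the receptor kinase Axl (3.20), Ly6a (2.96 ± 3.09) and the cell cycle gene Ccnd2 (2.67) also stood at the top, with a wide spread between samples. The lowest ratios belonged to the collagenase Mmp8 at -4.74, the proteoglycan Vcan at -4.02, the protease inhibitor Slpi at -4.02, the transglutaminase F13a1 at -3.84 and Fn1 at -3.83. The chitinase-like gene Chil3 was lower in 22 of 22 samples (-3.56 ± 2.34). Ly6c2 was lower in 21 of 22 samples but by less (-1.77 ± 1.23), and Plac8, another gene of classical monocytes, was lower in only 12 of 22 (-0.34 ± 0.78).

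Against the patrolling Mon Ace (20 samples), MHC-II monocytes had less Ace (-2.37 ± 2.51, lower in 20 of 20 samples), Pglyrp1 (-5.68), the fatty acid binding protein Fabp4 (-5.62) and Cd300e (-5.62), and more Ly6c2 (1.99 ± 2.12, higher in 19 of 20). Gngt2, a gene of patrolling monocytes, was close between them at -0.75. The level of Ly6c2 thus lay between those of Mon Fn1 and Mon Ace. Against Mon Thbs1 (11 samples) the matrix gene Thbs1 was at -4.39 and F13a1 at -3.91, and H2-Ab1 stood at only 2.71 ± 1.20. With Mac Cd81, a macrophage population (5 samples), the class II genes were shared, since H2-Ab1 differed by 0.35 ± 0.73. The complement genes C1qa (-6.45) and C1qc (-6.92) and Apoe, an apolipoprotein of lipid-handling macrophages (-3.17 ± 0.59), were lower in MHC-II monocytes in 5 of 5 samples, and Ly6c2 was higher in 5 of 5 (3.27 ± 1.44). With cDC2, the dendritic cells that prime CD4 T cells (9 samples), H2-Ab1 was lower in 9 of 9 samples (-0.81 ± 0.50) and Cd209a was at -6.19. The accessory chains H2-Oa (-4.95) and H2-DMb2 (-4.14) were lower too, while Apoe (5.01), Lyz2 (3.85 ± 1.34) and Csf1r (1.88) were higher.

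**Figure D2:**
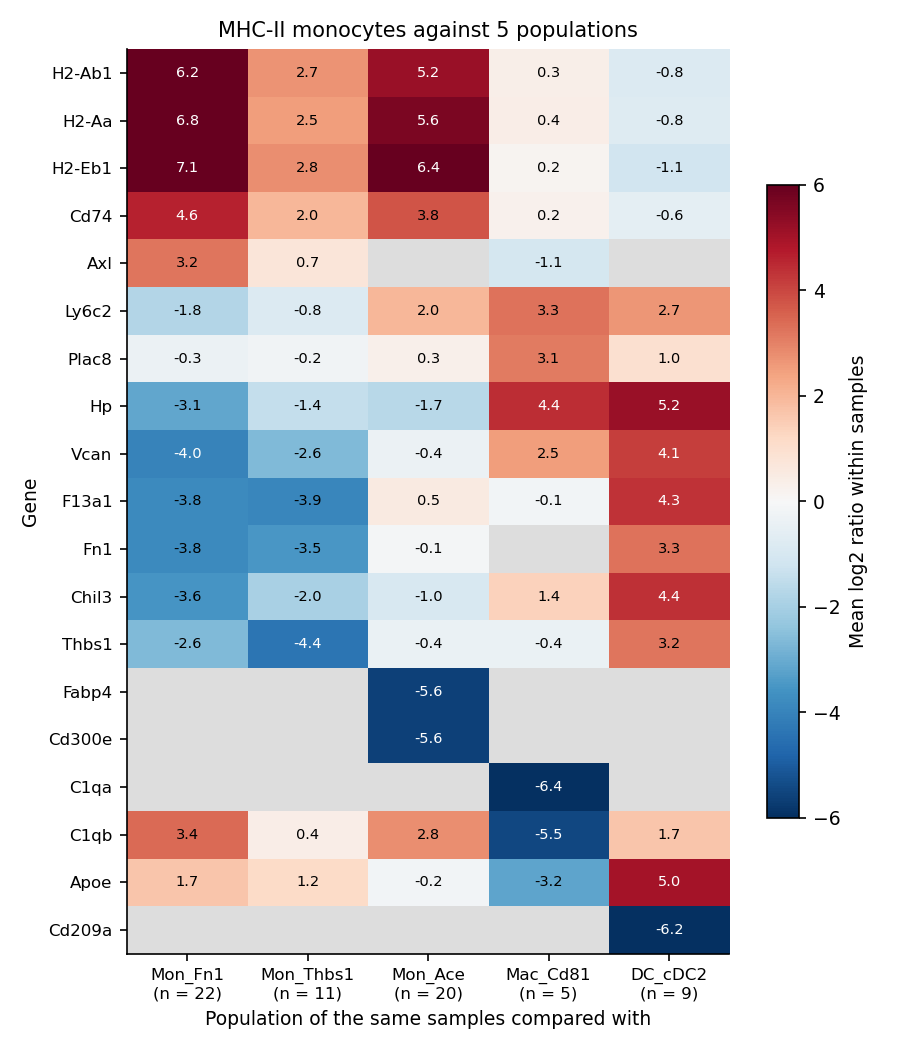
Mean log2 ratio of CPM + 1 in MHC-II monocytes over 5 populations of the same samples, for 19 genes, with n as the number of samples where each of the pair had 10 cells or more. Red is higher and blue lower in MHC-II monocytes, and gray marks genes below the level filter of that pair. Class II genes separate the MHC-II monocytes from the other monocytes (H2-Ab1 at 6.19 against Mon Fn1) and not from Mac Cd81 (0.35), while C1qa and Cd209a separate them from Mac Cd81 and cDC2.

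The tissues differed in depth and in sequencing batch. The summed samples held 14098 to 597721 UMIs, with 184032 to 597721 in Primary tumors and at most 123571 elsewhere, and the Primary medians were 2901 to 10235 UMIs per cell. Statuses of 18 sums could be tested (Normal 3, Relapse-free 4, Pre-MET 3, Primary 4, MET 4). Primary sums came from the batches SB128 (mouse 8) and SB132, whereas Normal, Relapse-free and Pre-MET sums came from SB102 and earlier or from SB111 and SB112, and MET sums from SB118 to SB128. All 3 Normal lungs were from SB102, which held no Pre-MET or Relapse-free sample. In expression, tissue and batch cannot be told apart for Primary against Pre-MET, for MET against Relapse-free sums or for Pre-MET and Relapse-free against Normal. In shares they cannot be told apart for Primary against Pre-MET or for Pre-MET and Relapse-free against Normal. Primary and MET sums shared SB128. Mitochondrial UMIs were 1.22 to 1.77% in Primary and 2.28 to 3.10% in Pre-MET sums. The sums do not separate fewer cells with a transcript from less of it per cell. Levels in T and NK cells of the same samples, and in B cells for class II genes, are given beside the results, as values that moved with them, and their part in each result was not tested unless stated.

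MHC-II monocytes were the commonest in Primary tumors. They made up 45.5, 39.8, 36.3 and 56.7% of the monocytes of mice 8, 9, 10 and 38 (mean 44.6% ± 8.91, n = 4). In Pre-MET lungs they made up 6.44, 7.84 and 5.15% (6.48% ± 1.34, n = 3), and in Normal lungs 14.8, 20.1 and 12.9% (15.9% ± 3.77, n = 3). Relapse-free lungs had 14.8% ± 5.98 (5.00 to 21.3%, n = 6) and MET sections 9.57% ± 4.63 (median 8.14%, range 2.99 to 17.6%, n = 13). Distal normal tissue had 7.06% ± 4.84 (median 5.73%, range 2.08 to 18.2%, n = 14), MET Core 11.8% ± 10.4 (median 9.09%, range 1.19 to 33.3%, n = 13) and the Invasive margin 11.0% ± 12.4 (median 5.99%, range 0 to 33.3%, n = 7). All 4 Primary tumors thus stood above every sample of the other statuses, and the 3 Pre-MET lungs stood below the 3 Normal lungs.

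**Figure D3:**
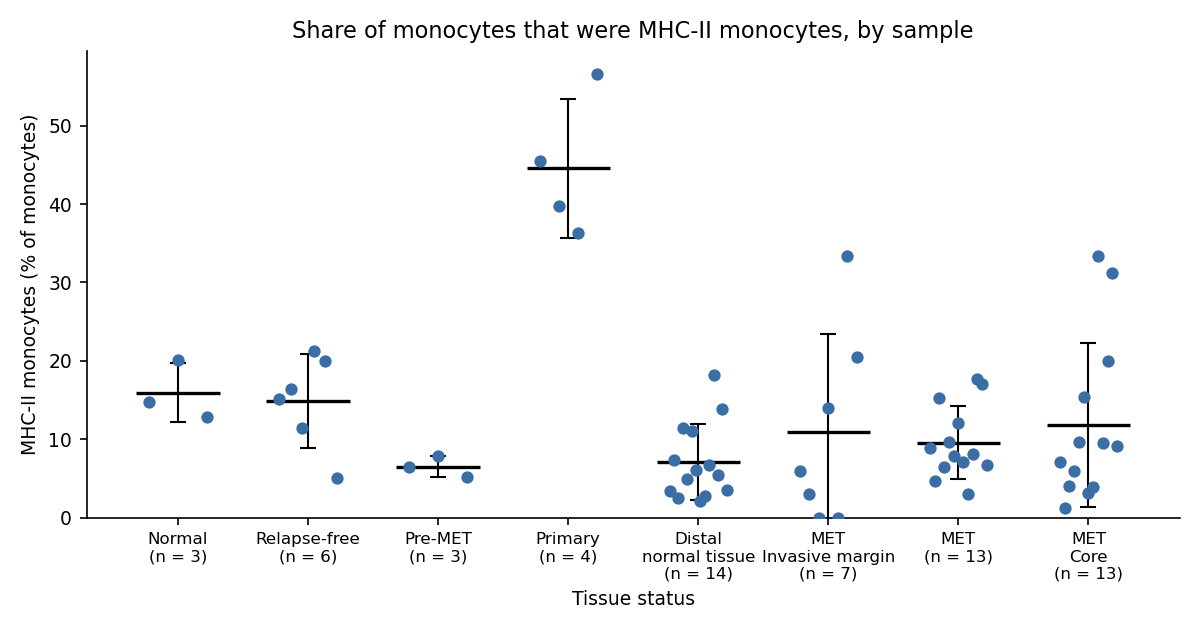
MHC-II monocytes as a percentage of monocytes in each sample (points), by tissue status, with the mean (line) and 1 SD (bars, drawn from 0 where they would pass below it). The 4 Primary tumors lie between 36.3 and 56.7%, above every sample of the other statuses, of which the highest are at 33.3%.

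Two-sided exact permutation tests were made for 8 pairs of statuses, with Benjamini-Hochberg adjustment over the 8. Primary exceeded MET by 35.0 percentage points (p = 0.000420, the smallest this design can give, adjusted p = 0.00168) and MET Core by 32.7 points (p = 0.000420, adjusted p = 0.00168). Primary exceeded Pre-MET by 38.1 points (p = 0.0286, the smallest possible with 4 and 3 samples, adjusted p = 0.0762). Pre-MET was 9.44 points below Normal (-9.44), where 3 against 3 samples cannot give a p below 0.1 (adjusted p = 0.16). The remaining pairs did not pass: MET minus Relapse-free was -5.28 points (exact permutation p = 0.0506, adjusted p = 0.101), Relapse-free minus Normal -1.07 (exact permutation p = 0.810, adjusted p = 0.874) and MET minus Distal normal tissue 2.51 (permutation p = 0.181, adjusted p = 0.241). Core and margin means differed by 0.836 points (exact permutation p = 0.874). Within the 6 mice with both regions the core had the larger share in 6 of 6, at 15.7 against 7.25%. The mean difference was 8.43 points (exact sign-flip permutation p = 0.03125, the smallest possible with 6 mice, adjusted p = 0.0938 over the 3 comparisons made within mice and not over the 8 pairs). These shares rest on few cells, as in mouse 32 with 2 of 21 monocytes in the core and 0 of 6 in the margin.

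These shares depend on gates and on the definition of the population. Core and margin were sorted by GFP and the other tissues by CD45, except that the core of mouse 17 was gated on GFP and CD45 and part of the Relapse-free cells of mice 6 and 7 on GFP without CD45. Another part of the cells of mice 6 and 7 was gated on CD45 and on the absence of GFP. Mouse 17 is 1 of the 6 mice with both regions, and without it, a test added after seeing the data, the core was higher in 5 of 5, by 9.88 points (exact sign-flip permutation p = 0.0625, the smallest possible with 5 mice). The monocytes that were not MHC-II monocytes also differed in the same genes, with H2-Ab1, H2-Aa, H2-Eb1 and Cd74 at 0.0453% of their UMIs in Pre-MET lungs and 0.747% in Primary tumors, so that a larger population and a higher class II level of all monocytes cannot be told apart. Within batch SB128, 1 Primary tumor stood at 45.5% against a mean of 8.31% over 4 MET sections and 20.2% over 2 cores. MET minus Relapse-free was -11.7 points in SB118 (6 against 1 sample) and 3.31 in SB128 (4 against 1). MET minus Distal normal tissue was 1.83, 1.64 and -0.332 points in SB118, SB124 and SB128, and core minus margin 1.15, 5.03, 5.19 and -0.342 points in SB112, SB118, SB124 and SB128. These values do not pair the mice. The SB128 value sets the cores of mice 36 and 37 against the margin of mouse 36, whose own shares were 31.25% in the core and 20.5% in the margin. Against all immune cells the population made up 14.7% ± 3.37 in Primary tumors and means of 1.81 to 3.88% in the other statuses, and with that denominator Pre-MET minus Normal (0.541 points) and MET minus Relapse-free (1.03 points) changed sign.

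Within MHC-II monocytes, class II transcripts were higher in Primary tumors than in the other 4 statuses tested. H2-Ab1, H2-Aa, H2-Eb1 and Cd74 together took 5.16% ± 0.655 of the UMIs in Primary (n = 4), 2.76% ± 0.617 in Normal (n = 3), 2.39% ± 0.685 in MET (n = 4), 1.99% ± 1.01 in Pre-MET (n = 3) and 1.80% ± 0.296 in Relapse-free sums (n = 4). The statuses other than Primary overlapped with at least 1 neighbour in this order. The summed share includes Cd74, which differed between sequencing batches in B cells too (below). All Primary sums were from later batches than the Normal, Relapse-free and Pre-MET sums. The 2 MET Core sums held 3.89 and 5.95% and lay in or near the Primary range of 4.38 to 5.98%. The higher one, of mouse 31, had the highest Cd74 of all sums and came from SB124, where Cd74 of B cells was the highest too (below). H2-Aa and H2-Eb1 of both cores were below every Primary tumor. Finally, the 2 sums of Distal normal tissue held 2.32 and 3.75%.

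Cd74 was at 15226, 15847, 12419 and 14520.2 CPM in Primary tumors (mice 8, 9, 10 and 38) and at 1045, 1061 and 1057 CPM in Pre-MET lungs (mice 8, 9 and 10). It was at 2153, 1927 and 1115 CPM in Normal lungs and at 1476, 1683, 1664 and 1568 CPM in Relapse-free lungs. MET sections were spread over 1859.6, 1419, 5006 and 10307 CPM (mice 28, 30, 31 and 36). MET Core sums of mice 31 and 36 held 28038 and 9472 CPM, and Distal normal tissue 2843 and 10305 CPM (mice 27 and 36). The Primary tumors thus did not overlap with Normal, Relapse-free, Pre-MET or MET sums, but lay between the 2 core sums, and the MET sections split into a pair at the level of Normal lungs and a pair above it. H2-Ab1 varied less, with 25278, 19028, 17822 and 22012 CPM in Primary, 6305, 8563 and 20453 CPM in Pre-MET and 19871, 17955 and 11921 CPM in Normal sums. It was at 8966, 13029, 9526 and 9722 CPM in Relapse-free and at 11949, 7448, 12169.8 and 10975 CPM in MET sums, so that the Primary range overlapped with 1 Pre-MET and 2 Normal lungs and with no Relapse-free or MET sum, while the cores were at 21077 and 17214 CPM. H2-Aa was at 10911, 7529, 7089 and 7828 CPM in Primary, 2581, 4025 and 5094 CPM in Pre-MET, 4798, 6750.1 and 4985 CPM in Normal, 2594, 4329, 4019 and 3541 CPM in Relapse-free and 4867, 3405, 6231 and 5469.6 CPM in MET sums. All 4 Primary values of H2-Aa lay above those of these 4 statuses and of the cores (5595 and 6922 CPM), but 1 Distal normal tissue sum was at 8181 CPM (mouse 36), above 3 of the Primary tumors.

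Beside this stands a difference between sequencing batches in Cd74. In the 14 sums of batches SB96 to SB123 Cd74 was at 1045 to 2843 CPM, and in the 9 sums of SB124 to SB132 at 5006 to 28038 CPM, with no overlap. The ratio of Cd74 to H2-Ab1 was 0.0517 to 0.250 in the earlier and 0.411 to 1.33 in the later sums. B cells showed the same split, with Cd74 at 1121 to 2515 CPM in 7 earlier batches and 9678 to 40757 CPM in 4 later ones, while their H2-Ab1 overlapped (7065 to 12426 and 7864.5 to 13172 CPM). The later batches also differed among themselves, with Cd74 of B cells at 40757 CPM in SB124 (13 cells) and at 9678, 11022 and 11476 CPM in SB126, SB128 and SB132. The core sum of mouse 31, at 28038 CPM, was from SB124, while its MET sum, from SB124 and SB128, was at 5006 CPM. The MET sums of mice 31 and 36, the high pair, were from the later batches. In Primary against Pre-MET sums the fold of mean CPM was 13.8 for Cd74, 2.14 for H2-Aa, 1.79 for H2-Ab1 and 2.41 for H2-Eb1 in MHC-II monocytes, and 10.6, 1.18, 0.902 and 1.64 in B cells of the same samples. The difference in H2-Aa, H2-Ab1 and H2-Eb1 was thus larger in the monocytes than in B cells, and that in Cd74 was of similar size in both, without a test of the difference.

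**Figure D4:**
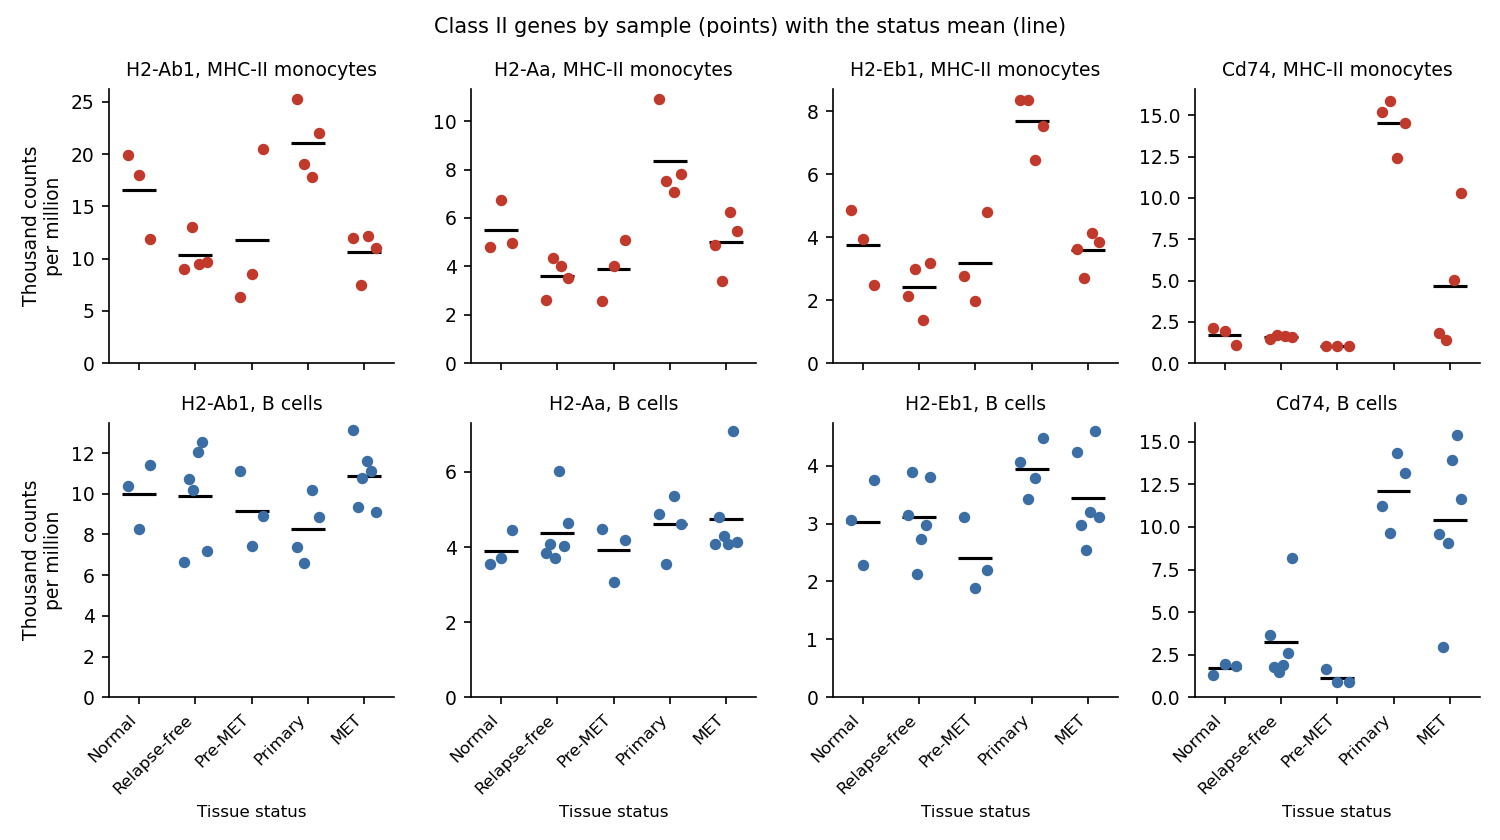
H2-Ab1, H2-Aa, H2-Eb1 and Cd74 in MHC-II monocytes (red, upper row) and in B cells of the same tissues (blue, lower row), in CPM per sample divided by 1000 (points) with the status mean (line). The H2-Aa and H2-Eb1 values of Primary tumors lie above those of the other 4 statuses shown in MHC-II monocytes and overlap with them in B cells, whereas Cd74 is high in Primary tumors in both rows.

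Expression was then tested gene by gene with edgeR (quasi-likelihood F test on the sums, Benjamini-Hochberg adjustment over 1721 genes, calls at an adjusted p below 0.05), and values below are log2 fold changes ± SE after TMM normalization of library sizes. The comparisons share samples with each other. Primary against Pre-MET, the tumor against the lung of animals at the same stage, gave 309 called genes (18% of those tested), 150 higher (8.72%) and 159 lower (9.24%) in Primary. The count was 148 of 1446 tested genes with a minimum of 5 cells per sum and 662 of 3381 with only these 2 statuses in the fit. It was 208 of 1721 with the mouse as a block and 93 of 271 with each cell thinned to 500 UMIs. Levels did not overlap between the 3 Pre-MET and 4 Primary sums for 33.4% of all tested genes and for 296 of the 309. T and NK cells of the same samples moved by at least 2-fold in the same direction for 216 of the 309 called genes, 90 of the higher and 126 of the lower ones, and 21 of the 309 were also called in the same direction relative to T and NK cells. Of the 58 called genes named by rule 31 lost their call and 25 kept it without the Primary sums of SB132, which leaves 1 Primary sum. With a minimum of 5 cells per sum H2-Ab1 (1.06, adjusted p = 0.125), H2-DMa (1.61, adjusted p = 0.0647), Ccl6 (-1.40, adjusted p = 0.136), Eno1 (1.55, adjusted p = 0.126), Tpi1 (2.54, adjusted p = 0.104), Ctsd (2.78, adjusted p = 0.113), C1qb (3.67, adjusted p = 0.0979), Ms4a4c (1.49, adjusted p = 0.125) and Plac8 (-1.29, adjusted p = 0.0822) were not called. Mmp12 was not called by DESeq2 (6.07, adjusted p = 0.161), Ldha with each cell thinned to 500 UMIs (1.20, adjusted p = 0.106), and Ccl6 (-0.83, adjusted p = 0.343), Klf2 (-1.84, adjusted p = 0.196) and Plac8 (-0.71, adjusted p = 0.343) without a filter on low counts. With library totals in place of TMM factors Ctsd (2.64, adjusted p = 0.0611), C1qb (3.53, adjusted p = 0.0594) and Eno1 (1.37, adjusted p = 0.0516) were not called. Of the 159 lower genes 64 were annotated as pseudogenes, and 71 as protein-coding. In T and NK cells 58 of these 64 pseudogenes were lower by at least 2-fold as well. Shares of pseudogenes, and of genes that moved in T and NK cells, were not taken over all tested genes.

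Class II genes mark this population, so the cells were selected in part on the genes tested here and in the class II results below. What this adds to the differences was not tested. The class II list held 7 called genes of 10 tested (14 listed), all higher in Primary, with a median of 1.41 against 0.04 over all genes, where 8.72% of all tested genes were higher. They were Cd74 (4.01 ± 0.48, adjusted p = 7.72e-07), the endosomal protease Lgmn (3.94 ± 0.87, 0.00129), the peptide exchange factor subunits H2-DMb1 (2.29 ± 0.52, 0.00155) and H2-DMa (1.61 ± 0.44, 0.00806), H2-Eb1 (1.49 ± 0.35, 0.00213), H2-Aa (1.32 ± 0.31, 0.00254) and H2-Ab1 (1.06 ± 0.32, 0.0159). Lgmn was at 739, 881, 865 and 656 CPM in Primary and at 65.3, 109.8 and 0 CPM in Pre-MET sums, and H2-DMb1 at 1467, 1413, 1057 and 1516 against 588, 256 and 113 CPM, so that neither overlapped. H2-Ab1 lost its call without Pre-MET mouse 8 (1.00, adjusted p = 0.0672) or mouse 9 (0.97, adjusted p = 0.085), and it overlapped between the groups. Relative to T and NK cells Cd74 was at -0.35, H2-Aa at -1.05, H2-Ab1 at -0.46, Lgmn at -1.78, H2-Eb1 at 0.84 (adjusted p = 0.544), H2-DMa at 1.38 (adjusted p = 0.257) and H2-DMb1 at 2.14 (adjusted p = 0.556), so that 0 of the 7 was called, where T and NK cells themselves held 361 against 15.0 CPM of Cd74 and 107 against 20.9 CPM of H2-Aa. The transactivator Ciita (0.04 ± 0.82), the protease Ctss (0.40 ± 0.28) and the thiol reductase Ifi30 (0.45 ± 0.48) were not called.

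Part of the interferon genes were higher in Primary tumors. Of 26 tested genes of the type I interferon list (40 listed) 11 were higher and 0 lower, with a median of 2.30, where 8.72% of all tested genes were higher, and 0 of the 11 were also called relative to T and NK cells. The named ones were the transcription factor Irf7 (3.28 ± 0.60, adjusted p = 0.000137), the ubiquitin-like Isg15 (4.85 ± 0.96, 0.000427), Ifit3, which binds viral RNA complexes (5.94 ± 1.32, 0.00128), and the T cell chemokine Cxcl10. Irf7 was at 538, 799, 869 and 999 CPM in Primary and at 32.7, 146 and 113 CPM in Pre-MET sums. Isg15 was at 288, 550.4, 611 and 1000.5 CPM against 0, 0 and 75.5 CPM, and none of the Primary values overlapped with a Pre-MET value in either gene. T and NK cells also differed, with means of 260 against 38.3 CPM for Irf7, 239 against 0 CPM for Isg15 and 395 against 41.7 CPM for Ifit3, and Isg15 was at -3.86 relative to them. Of 7 genes of the interferon gamma list 3 were higher, among them the Fc receptor Fcgr1 (3.08 ± 0.69, 0.00136), at 522, 819, 941 and 839.9 CPM against 32.7, 219.6 and 75.5 CPM. Of 13 MHC class I genes 0 were called (median 0.96).

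Chemokine and receptor genes changed in both directions. Of 9 chemokines 4 were higher (Ccl4, Ccl5, Cxcl10, Cxcl16) and 1 lower (Ccl6, -1.41 ± 0.41, adjusted p = 0.0129), beside 8.72% higher and 9.24% lower of all tested genes, with a median of 5.29, or 2.17 when the 4 genes at 0 in a whole group are set to their bound. Cxcl16, the ligand of Cxcr6 on T cells, was at 402, 357, 436 and 524 CPM in Primary and at 0, 36.6 and 0 CPM in Pre-MET sums (5.29 ± 1.21, 0.00191). Its mean in T and NK cells was 3.45 CPM in Primary and 0 in Pre-MET. Cxcl10 was at 348, 271, 339 and 701 CPM in Primary and at 0 in the 3 Pre-MET sums, at least 11.7-fold higher against a floor of 3 counts over the group (7.44-fold without Pre-MET mouse 8), with T and NK cell means of 108 and 0 CPM. Among receptors Ccr1, which binds inflammatory chemokines, was higher (5.36 ± 1.08, 0.000551) and Cx3cr1, the receptor of patrolling monocytes, was lower (-4.54 ± 1.17, 0.00514). Ccr1 was at 456, 504, 431 and 425 CPM against 0, 0 and 37.7 CPM, with no overlap. Ccl6 lost its call without Pre-MET mouse 8 (-1.20, adjusted p = 0.087) or 9 (-0.85, adjusted p = 0.23) and with the mouse as a block (-1.18, adjusted p = 0.0815). Ccl4 lost its call without Pre-MET mouse 8 (4.11, adjusted p = 0.0512) and Cx3cr1 without Pre-MET mouse 10 (-2.83, adjusted p = 0.205).

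Several of the largest differences were in genes at 0 in all 3 Pre-MET sums, as 20 of the 150 higher genes were. The count filter kept a gene with enough counts in any 3 sums, so these genes passed it only through other statuses. What this adds to their calls and to the counts of higher genes in the lists was not tested. Clec4n (Dectin-2, a receptor for fungal mannans) was at 1369, 1187, 1119 and 724 CPM in Primary tumors, at least 31.0-fold higher, and at a mean of 15.8 CPM in their T and NK cells. The actin-severing Gsn was at least 16.3-fold higher, the complement receptor C3ar1 at least 12.9-fold, the endocytic adaptor Dab2 at least 11.1-fold and the elastase Mmp12 at least 10.6-fold. Without Pre-MET mouse 8, which raises the floor, these bounds were 19.7 for Clec4n and 6.74 to 10.4 for the others. Spp1 (osteopontin) was at 435, 1055, 671 and 293 CPM in Primary tumors, at least 17.3-fold higher (11.0-fold without Pre-MET mouse 8). But its means in T and NK cells (439 CPM) and B cells (728 CPM) of the same tumors lay on either side of the mean in MHC-II monocytes (613 CPM). The level of Spp1 was thus not particular to these monocytes, and its source was not tested.

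Some metabolic, lysosomal and early response genes were higher as well, against the 8.72% of all tested genes that were. Of 8 glycolysis and hypoxia genes 4 were higher (median 1.81), namely Pkm (3.02 ± 0.54, adjusted p = 0.000104), Ldha (2.07 ± 0.49, 0.00247), Tpi1 and Eno1. Pkm, which makes pyruvate, was at 1489, 1589.5, 1459 and 1440.5 CPM in Primary and at 196, 146 and 302 CPM in Pre-MET sums. Means in T and NK cells were 943 against 86.7 CPM of Pkm and 1124 against 364 CPM of Ldha, and Pkm was at -0.33 relative to them. Tpi1 and Eno1 were not called with the mouse as a block (2.67, adjusted p = 0.0511, and 1.62, adjusted p = 0.0627). Without Pre-MET mouse 8 (1.38, adjusted p = 0.106) or 9 (1.73, adjusted p = 0.059) Eno1 also lost its call, and without Pre-MET mouse 10 (2.31, adjusted p = 0.0882) or Primary mouse 10 (2.39, adjusted p = 0.0612) Tpi1 did. Of 11 lipid and lysosome genes 3 were higher (median 1.15): the iron store Fth1 (2.14 ± 0.31, 7.52e-06), the galectin Lgals3 (1.63 ± 0.35, 0.000956) and Ctsd (2.82 ± 0.98, 0.0413). Fth1 was at 11156, 7987, 9345 and 7972 CPM in Primary and at 2058, 2598 and 2604 CPM in Pre-MET sums, against means of 1834 and 1116 CPM in T and NK cells, and it was still called relative to them (1.51, adjusted p = 0.00299). Ctsd lost its call without Pre-MET mouse 8 or 9 or Primary mouse 9 or 10 (2.34 to 2.75, adjusted p from 0.0703 to 0.145). The calcium-binding S100a11 was also called relative to T and NK cells (2.43, adjusted p = 0.0103), with 2879.9, 2527, 1707 and 2109.7 CPM in Primary and 294, 109.8 and 151 CPM in Pre-MET sums. It was chosen after its values were seen. Of 18 immediate early and heat shock genes 5 were higher, among them Jun (4.19 ± 0.87, 0.00071) and Junb (2.64 ± 0.56, 0.000824), and Klf2, a factor of quiescent cells, was lower (-2.43 ± 0.68, 0.00992). What the different dissociation programs of tumors and lungs add to these values was not tested. Klf2 lost its call without Pre-MET mouse 8 (-2.26, adjusted p = 0.0603).

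Genes of the other monocyte states divided. Of 8 genes of the patrolling monocyte list 3 were lower in Primary and 0 higher, with a median of -1.77, where 9.24% of all tested genes were lower. Gngt2 was at 641, 449, 570.2 and 507 CPM in Primary and at 3234, 3806 and 4415 CPM in Pre-MET sums (-2.59 ± 0.33, adjusted p = 1.06e-06). Adgre4, an adhesion receptor of patrolling cells, was at 16.3, 0, 13.6 and 21.7 CPM against 109.8 to 566 CPM (-4.49 ± 0.82, 0.000141), again without overlap. Of 12 classical monocyte genes Ly6c2 (2.37 ± 0.58, 0.00333) and Ms4a4c (1.48 ± 0.40, 0.00739) were higher and Plac8 was lower (-1.30 ± 0.29, 0.00154), with a list median of 0.16. Ly6c2 was at 1771, 1279, 1569 and 1867 CPM in Primary and 229, 695 and 189 CPM in Pre-MET sums, with T and NK cell means of 1255 and 371 CPM. Plac8 was at 1152, 1039, 1703 and 2152 CPM against 4084, 5159.9 and 3887 CPM, while its T and NK cell means were 281 and 187 CPM, and it remained lower relative to those cells (-1.83, adjusted p = 0.0103).

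The lowest fold changes included S100a8 (-6.02 ± 0.91, adjusted p = 1.29e-05) and S100a9 (-5.46 ± 0.96, 8.55e-05), the calprotectin genes of neutrophils. S100a8 was at 38.0, 24.2, 1.94 and 0 CPM in Primary and at 131, 512 and 2491 CPM in Pre-MET sums. Means of S100a8 in T and NK cells were 12.7 against 592 CPM, and neutrophils were a median of 2.60% of immune cells in Primary tumors and 13.8% in Pre-MET lungs. The gene models Gm25594 (annotated as a miRNA) and Gm10837 were also among the 10 lowest, at 0 and at 1.67 to 5.43 CPM in Primary sums, and T and NK cells of the Pre-MET lungs held means of 500 and 225 CPM of them. They moved with sequencing batch in B cells too, where Gm25594 was at 135 to 756 CPM in 6 batches from SB96 to SB112 and at 0 in 5 from SB118 to SB132, and Gm10837 at 126 to 687 and 0 to 55.5 CPM. Serpinb10 (-5.95 ± 0.81, 2.38e-06) and Id3, an inhibitor of helix-loop-helix factors (-5.28 ± 0.95, 0.000118), were lower in MHC-II monocytes and at 0 CPM in Pre-MET T and NK cells. Summed over whole marker lists, Pre-MET and Primary sums held 0 to 359 and 326 to 455 CPM of 12 cDC2 genes, 37.7 to 359 and 63.8 to 125 CPM of 10 B cell genes, 0 to 151 and 11.0 to 339.6 CPM of 12 T and NK cell genes, 1317 to 3623 and 2953 to 4744 CPM of 13 macrophage genes and 261 to 3208 and 82.0 to 147 CPM of 10 neutrophil genes. The 10 cDC1 genes, which include the abundant Cst3, summed to 4831 to 5717 and 3588 to 4298 CPM. Their part in the differences was not tested. Of the remaining lists, to be read against the 8.72% of all genes that were higher, inflammatory genes had 2 of 10 higher (Clec4n and Il1r2, median 0.83), matrix and adhesion genes 3 of 12 (Itgam, Mmp12 and Spp1, median 0.33), macrophage genes 1 of 4 (C1qb, median 1.37) and costimulation and checkpoint genes 1 of 8 (Lgals9, median 1.30). None of 4 cDC1 genes, 1 B cell gene and 1 alveolar macrophage gene was called, and no gene of the cell cycle, cDC2, migratory and plasmacytoid dendritic cell, T and NK cell, epithelial, tumor and erythroid lists passed the count filter. C1qb lost its call without Pre-MET mouse 8 or 9 or Primary mouse 8 or 10 (3.27 to 3.61, adjusted p from 0.0673 to 0.121), and Itgam without Pre-MET mouse 9 (3.03, adjusted p = 0.0563).

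**Figure D5:**
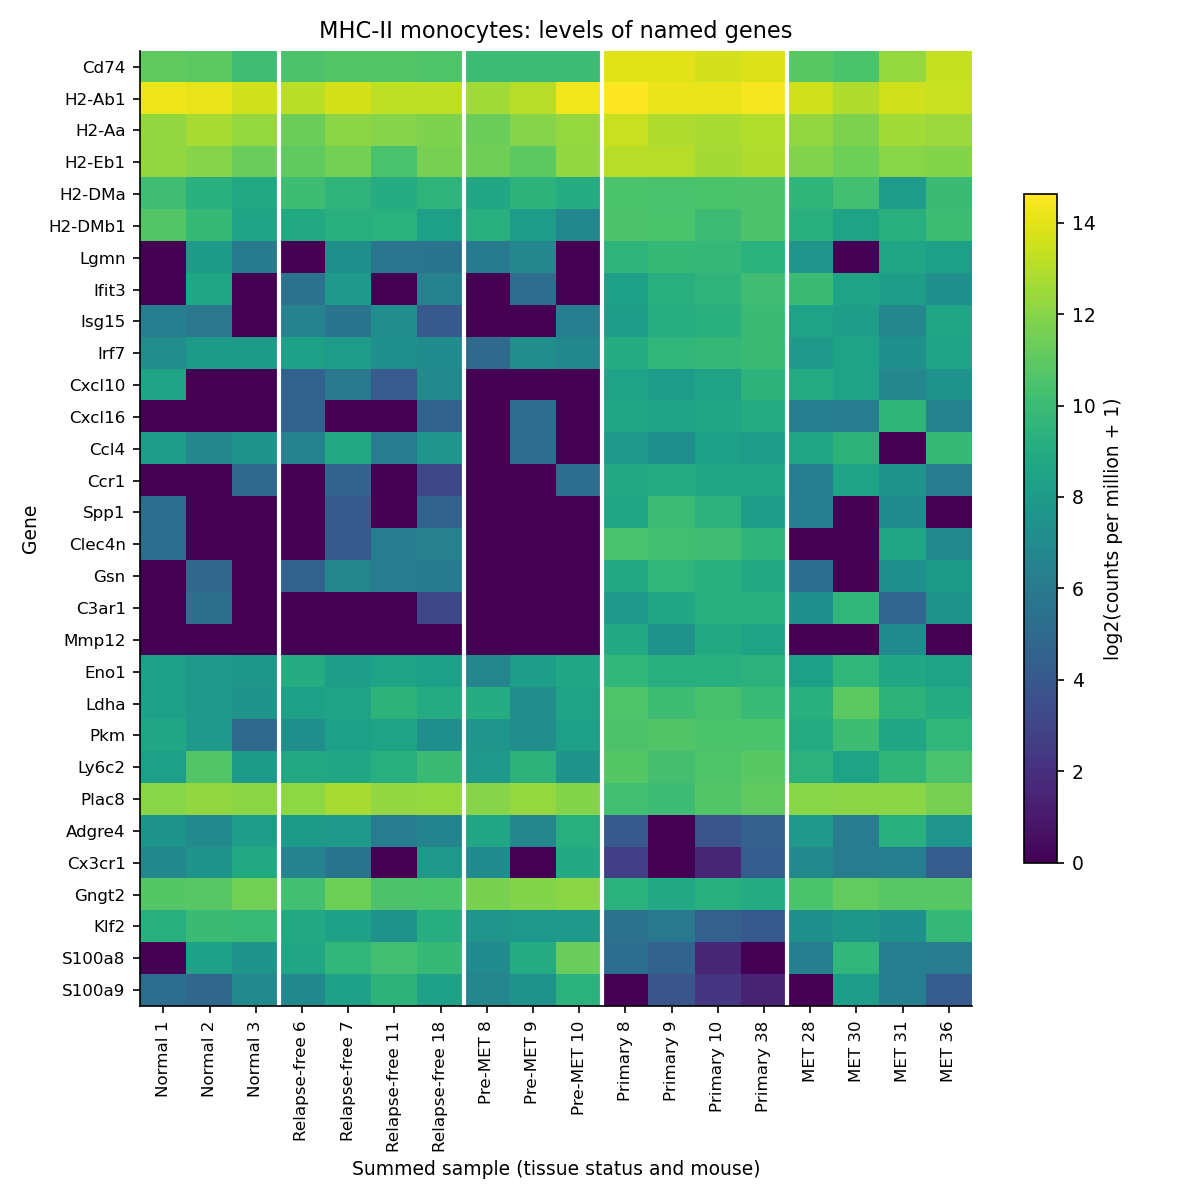
Levels of 30 genes in the 18 summed samples of MHC-II monocytes, as log2(CPM + 1), with columns ordered by tissue status and mouse. The Primary columns stand out by high Clec4n and Pkm and by low Adgre4, Gngt2 and S100a8. Cxcl16 is also high in them, but the MET section of mouse 31 lies above every Primary tumor.

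Primary tumors were next compared with MET sections, the tumor at the first site against lung tissue with lesions. This gave 45 called genes (2.61% of 1721), 17 higher (0.988%) and 28 lower (1.63%) in Primary. The split was 11 and 38 with library totals in place of TMM factors and 26 and 69 with DESeq2. The count was 95 with DESeq2, 80 of 18623 tested genes without a filter on low counts (69 higher) and 29 of 271 with each cell thinned to 500 UMIs. With library totals Fth1 (0.86, adjusted p = 0.069), Irf7 (1.53, adjusted p = 0.0672) and Lgals3 (0.91, adjusted p = 0.103) were not called. Levels did not overlap for 29 of the 45 and for 8.25% of all tested genes. T and NK cells moved at least 2-fold in the same direction for 24 of the 45, and 2 were called relative to them, S100a11 (1.86, adjusted p = 0.0192) and Plac8 (-2.25, adjusted p = 0.000475). The count was 28, 25, 19 and 16 without Primary mouse 8, 9, 10 and 38. Of the 30 called genes named by rule 28 lost their call and 2 kept it without the Primary sums of SB132. With a minimum of 5 cells per sum Irf7 (1.48, adjusted p = 0.0789), Lgals3 (0.85, adjusted p = 0.244), Gngt2 (-1.37, adjusted p = 0.0703), Nr4a1 (-1.39, adjusted p = 0.218) and Plac8 (-0.96, adjusted p = 0.244) were not called, nor were Fth1 (0.97, adjusted p = 0.0874), Lgals3 (1.04, adjusted p = 0.0726) and Nr4a1 (-1.99, adjusted p = 0.052) with only these 2 statuses in the fit. Without a filter on low counts Ace (-2.57, adjusted p = 0.14), Gngt2 (-0.90, adjusted p = 0.413), Nr4a1 (-1.26, adjusted p = 0.409) and Plac8 (-0.55, adjusted p = 0.554) were not called.

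Of 10 class II genes 3 were higher in Primary than in MET (median 1.10 against 0.04 over all genes, of which 0.988% were higher): Cd74 (1.77 ± 0.38, adjusted p = 0.00657), H2-Eb1 (1.28 ± 0.31, 0.018) and H2-Ab1 (1.17 ± 0.29, 0.0181). H2-Aa (0.92 ± 0.28, adjusted p = 0.0715) was just outside the threshold. It was called with a minimum of 5 cells per sum (1.14, adjusted p = 0.0334), as were H2-DMa (1.43, adjusted p = 0.0346) and Lgmn (2.01, adjusted p = 0.0421), and these 3, H2-DMb1 (1.76, adjusted p = 0.0287) and Ctss (1.11, adjusted p = 0.0368) were called without a filter on low counts. H2-Eb1 was at 8357, 8357, 6455 and 7540.3 CPM in Primary and at 3640.1, 2695, 4128 and 3863 CPM in MET sums. In B cells of 4 Primary and 3 MET samples the folds of mean CPM were 1.33 for Cd74, 1.17 for H2-Eb1 and 0.792 for H2-Ab1, against 2.53, 1.98 and 1.80 in MHC-II monocytes of the same samples. H2-Ab1 lost its call without Primary mouse 8 or 38 or MET mouse 30 (0.99 to 1.11, adjusted p from 0.061 to 0.0738), and H2-Eb1 without Primary mouse 9 or 38 or MET mouse 30 (1.12 to 1.25, adjusted p from 0.052 to 0.066). Cd74 kept its call without any single sum but lost it with a minimum of 5 cells per sum (1.13, adjusted p = 0.349), with only these 2 statuses in the fit (1.64, adjusted p = 0.0614) and without the Primary sums of SB132 (1.99, adjusted p = 0.0972). H2-Ab1 also lost its call with only these 2 statuses (1.07, adjusted p = 0.052) and without SB132 (1.62, adjusted p = 0.101), and H2-Eb1 without SB132 (1.59, adjusted p = 0.28). Within batch SB128 the Primary and MET values were 15226 and 10307 CPM for Cd74 and 25278 and 10975 CPM for H2-Ab1. Relative to T and NK cells Cd74 was at -1.49, H2-Ab1 at -0.68 and H2-Eb1 at -0.47.

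Outside the class II genes, Il1r2, the decoy receptor of interleukin 1, was at 821, 775, 824 and 484 CPM in Primary and at 158, 0, 0 and 0 CPM in MET sums (4.60 ± 0.91, adjusted p = 0.00286), with a T and NK cell mean of 82.4 CPM in Primary tumors. Clec4n was at 0, 0, 399 and 126 CPM in MET sums, below all Primary tumors (3.00 ± 0.65, 0.00775). These were the 2 higher genes of 10 inflammatory ones, and 2 others, Nfkbia and Nfkbiz, were lower. Of all tested genes 0.988% were higher and 1.63% lower. S100a11 was at 317, 567, 506 and 596 CPM in MET sums (2.40 ± 0.41, 0.00104), and its T and NK cell means were 477 and 340 CPM. Of 26 interferon genes 1 was called (Irf7, 1.73 ± 0.46, 0.035, median 0.81), and of 11 lipid and lysosome genes 2, Fth1 (1.07 ± 0.27, 0.0212) and Lgals3 (1.12 ± 0.31, 0.0389), with a median of 0.34, where 0.988% of all tested genes were higher. Irf7 kept no call without Primary mouse 9, 10 or 38 or MET mouse 28, 30 or 31 (at most 1.74, adjusted p from 0.0629 to 0.128). Fth1 lost its call without Primary mouse 8, 10 or 38 or MET mouse 28 or 30 (0.93 to 1.09, adjusted p from 0.0603 to 0.083), and Lgals3 without any Primary mouse or MET mouse 28, 30 or 36 (1.00 to 1.23, adjusted p from 0.0551 to 0.0988).

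Of 8 tested patrolling genes 4 were lower in Primary than in MET (median -1.87), as were 1.63% of all tested genes. Adgre4 was at 237, 70.9, 612 and 199 CPM in MET sums (-4.25 ± 0.79, adjusted p = 0.00159) and Gngt2 at 1424, 2199, 1837 and 1805 CPM (-1.53 ± 0.32, 0.00479), both above every Primary tumor. Ace (-3.14 ± 0.79, 0.0197) and Nr4a1, the transcription factor of patrolling monocytes (-1.86 ± 0.49, 0.0306), were the other two. Nr4a1 lost its call without Primary mouse 9, 10 or 38 or MET mouse 36 (-1.94 to -0.91, adjusted p from 0.0675 to 0.378). Plac8 was at 4115, 4327, 4394 and 3141 CPM in MET sums (-1.19 ± 0.28, 0.0132), and its call was lost without Primary mouse 8 (-1.05, adjusted p = 0.0601) or 9 (-1.04, adjusted p = 0.0589). Klf2 (-3.31 ± 0.58, 0.00104) was at 43.5, 57.2, 21.3 and 15.1 CPM in Primary and at 158, 213, 159.8 and 848 CPM in MET sums, and it lost its call without MET mouse 36 (-2.12, adjusted p = 0.0635). The summed patrolling list of 13 genes was 801 to 1114 CPM in Primary, 2611 to 5813 CPM in MET and 4830.6 to 7283 CPM in Pre-MET sums.

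MET sections were compared with Relapse-free lungs, both from resected mice. This gave 24 called genes (1.39% of 1721), 11 higher (0.639%) and 13 lower (0.755%) in MET, with a median over all genes of -0.09, and 14 of the 24 did not overlap, as 5.11% of all genes did not. The count was 11 of 271 tested genes with each cell thinned to 500 UMIs. It was 50 with DESeq2, split into 36 and 14, where the median of all genes was 0.11. The count ranged from 4 without MET mouse 31 to 71 without MET mouse 30, and it was 9, 12 and 14 without Relapse-free mice 6, 7 and 11 and 14 without MET mouse 36. With only these 2 statuses in the fit 1 of 873 genes was called, and Ahnak (-1.83, adjusted p = 0.0722), Ccl5 (-2.97, adjusted p = 0.0722), Cd74 (1.72, adjusted p = 0.221) and Lyz2 (-1.11, adjusted p = 0.254) were not. With a minimum of 5 cells Ccl5 (-1.14, adjusted p = 0.463) and Cd74 (1.51, adjusted p = 0.142) were not called, and with DESeq2 Ccl12 (7.64, adjusted p = 0.0994) and Lyz2 (-1.06, adjusted p = 0.0528). Relative to T and NK cells 15 of the 17 called genes named by rule lost their call, among them C3ar1 (8.45, adjusted p = 0.317), Cxcl16 (6.49, adjusted p = 0.138), Ccl12 (9.31, adjusted p = 0.34) and Ccr1 (3.83, adjusted p = 0.617), and 2 of the 24 were called in the same direction. Of 9 chemokines 2 were higher (Ccl12 and Cxcl16) and 1 lower (Ccl5). C3ar1 was at 158, 780.3, 26.6 and 181 CPM in MET and at 0, 0, 0 and 8.12 CPM in Relapse-free sums (5.90 ± 1.12, adjusted p = 0.00681). Its T and NK cell means were 0 and 2.27 CPM, and the call was kept without any single sum. Cxcl16 was at 79.1, 70.9, 746 and 90.3 CPM against 22.4, 0, 0 and 24.4 CPM (4.33 ± 0.93, 0.0106), and lost its call without MET mouse 31 (2.76, adjusted p = 0.308) or Relapse-free mouse 7 (3.86, adjusted p = 0.0505). Ccl12 was at 1504, 0, 239.7 and 0 CPM and at 0 in the 4 Relapse-free sums, at least 50.5-fold higher in the mean, with only mice 28 and 31 above 0, and at least 9.26-fold without mouse 28. Ccr1 was at 79.1, 355, 186 and 72.2 CPM against 0, 24.3, 0 and 8.12 CPM (3.63 ± 0.89, 0.0248), and lost its call without Relapse-free mouse 6 or 11 or MET mouse 31 (3.43 to 3.51, adjusted p from 0.0631 to 0.0916).

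Cd74 was the 1 called gene of 10 class II genes in MET against Relapse-free (1.55 ± 0.38, adjusted p = 0.0248). The list median was 0.43 against -0.09 over all tested genes, of which 0.639% were higher. Relative to T and NK cells Cd74 was not called (0.86, adjusted p = 0.986), while H2-Aa (2.02, adjusted p = 0.0456), H2-Ab1 (1.65, adjusted p = 0.0456) and H2-Eb1 (1.95, adjusted p = 0.0456) were. In MHC-II monocytes themselves the folds of mean CPM were only 1.38 for H2-Aa, 1.03 for H2-Ab1 and 1.48 for H2-Eb1, and none of them was called. Cd74 overlapped between the groups, its fold of mean CPM was 2.91 in MHC-II monocytes, or 3.58 without MET mouse 30, which had under 10 B cells, and 4.15 in B cells of the remaining mice, and it lost its call without Relapse-free mouse 6, 7 or 11 or MET mouse 31 or 36 (0.86 to 1.68, adjusted p from 0.0631 to 0.234). Ccl5, a chemokine abundant in T and NK cells, was lower in MET, at 39.6, 213, 26.6 and 72.2 CPM against 268, 947, 460.4 and 755 CPM (-3.16 ± 0.73, adjusted p = 0.0158). T and NK cells held 13719 and 12566 CPM of it, and it was also called relative to them (-3.09, adjusted p = 0.0456). The call was lost without Relapse-free mouse 7 or MET mouse 28, 31 or 36 (-3.12 to -2.78, adjusted p from 0.0534 to 0.101). In the MET and Relapse-free sums of MHC-II monocytes, 12 T and NK cell genes summed to 0 to 72.2 and 268 to 623 CPM. The 13 macrophage genes summed to 1118 to 3334 and 3779 to 4061 CPM, while the cDC1, cDC2, B cell and neutrophil lists overlapped. Their part in the differences was not tested. Ahnak, a giant scaffold protein, was at 356, 213, 319.6 and 271 CPM in MET and at 1073, 849.7, 1151 and 1405 CPM in Relapse-free sums (-1.98 ± 0.41, 0.0103). It was called relative to T and NK cells too (-1.70, adjusted p = 0.0456), and lost its call without MET mouse 31 (-1.97, adjusted p = 0.059). Lyz2 was at 14402, 8157, 4181 and 14911 CPM against 25937, 25516, 24718 and 21434 CPM (-1.27 ± 0.31, 0.024), without overlap. T and NK cells held 359 against 621 CPM of Lyz2, and its call was lost without Relapse-free mouse 6, 7 or 11 or MET mouse 30 or 31 (-1.20 to -0.95, adjusted p from 0.054 to 0.157).

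Pre-MET against Normal lungs gave 0 called genes with edgeR (0% of 1721), with 195 at an unadjusted p under 0.05, and DESeq2 called 6. Levels of 14.9% of the genes did not overlap between the 3 and 3 sums. The class II list had a median of -0.53 against -0.04 over all genes, with H2-DMb1 at -1.67 ± 0.55 (adjusted p = 0.227) and Ifi30 at 1.58 (adjusted p = 0.307). Relapse-free against Normal lungs also gave 0 called genes with edgeR (0%), with 87 at an unadjusted p under 0.05, and DESeq2 called 0 with 115 under 0.05, while 6.45% of the genes did not overlap. There the class II list had a median of -0.38 against 0.02, with H2-Ab1 at -0.68 (adjusted p = 0.952) and H2-Aa at -0.61. On simulated counts a 4-fold change was recovered in 34.6% of changed genes for Pre-MET against Normal and in 58.1% for Relapse-free against Normal, so that changes of this size could be missed. Distal normal tissue had 2 sums with 10 cells and was not tested against MET at that minimum. With a minimum of 5 cells edgeR called 0 of 1446 genes for MET minus Distal normal tissue, with 76 at an unadjusted p under 0.05.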

How the data were processed

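Single CD31-CD45+ or GFP+ cells were sorted into plates and profiled with SPID-seq, a plate-based single-cell RNA-seq method that counts molecules by UMI. The authors deposited raw UMI counts per gene row and well for 148 plates, without normalization, and an annotation of wells with mouse, sequencing batch and population. Per the labels and the methods of the study, reads were demultiplexed with bcl2fastq 2.15.0.4, mapped to mm10 with HISAT 0.1.6, reads with several positions were dropped, and cells under 500 UMIs were discarded. Reads were assigned to exons of UCSC genes, and overlapping exons on one strand were joined to a single gene, while the release of the annotation is not given in the sources used here. Pseudogenes and close paralogs are therefore uncertain. Doublets were gated out in the sort, and no doublet caller was run. Spike-in rows (92) were left out.

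From these counts, UMIs were summed over the MHC-II monocytes of a mouse and tissue status with at least 10 such cells, since cells are not replicates. One fit over the statuses with at least 3 sums was made in edgeR 4.0.16 (TMM, filterByExpr, quasi-likelihood F test) under R 4.3.3 with limma 3.58.1. The SE is the absolute log2 fold change over the square root of F. DESeq2 1.42.0 was an alternative. The study tested cells by rank sums, which was not done here. CPM are UMIs of a gene per 1000000 UMIs of a sum, and ratios between populations used log2(CPM + 1). Shares were taken in samples with at least 5 monocytes and compared by two-sided exact permutation tests (100000 resamples where both groups had 10 or more), in place of the t test of the study. Python 3.11.15, numpy 2.4.6, pandas 2.3.3, scipy 1.17.1 and matplotlib 3.10.9 were used. Each sum had 14098 to 597721 UMIs.

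The members, the gene lists (27) and the comparisons were chosen with earlier results of these data known. Named genes were, for each comparison, the 10 largest rises and falls among called genes without overlap, every tested class II gene, and up to 4 called members of each list by smallest adjusted p, and the 12 highest and lowest ratios to Mon Fn1 among genes of at least 100 CPM. Of these, the text gives those that its groups turn on, and some genes are not reported here. Same-numbered Primary and Pre-MET samples come from the same mouse (8, 9 and 10), and their deviations correlated at 0.021, 0.0264 and -0.0222 over genes. On simulated counts with 200 genes changed by 4-fold, of which 159 to 172 passed the filter, edgeR recovered 34.6% (Pre-MET minus Normal), 54.8% (Primary minus Pre-MET), 66.7% (Primary minus MET), 61.6% (MET minus Relapse-free) and 58.1% (Relapse-free minus Normal), with 2, 5, 3, 5 and 7 false calls.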

Additional observations from a re-analysis of the deposited data

How the results depend on the processing

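Counts of called genes moved with several settings. Some of these also changed the number of genes tested, to 18623 without a filter, 1446 with a minimum of 5 cells and 271 after thinning, against 1721. With DESeq2 they were 6 (Pre-MET minus Normal), 95 (Primary minus MET) and 50 (MET minus Relapse-free). Without a filter they were 2 (Pre-MET minus Normal) and 80 (Primary minus MET), with cells of at least 1000 UMIs 1 (Pre-MET minus Normal), and with a minimum of 5 cells per sum 148 (Primary minus Pre-MET). Fitting only the pair of statuses gave 662 of 3381 (Primary minus Pre-MET) and 1 of 873 (MET minus Relapse-free). Chosen after seeing the data were thinning each cell to 500 UMIs (3, 93, 29 and 11 for Pre-MET minus Normal, Primary minus Pre-MET, Primary minus MET and MET minus Relapse-free), leaving out the Primary sums of batch SB132, which leaves 1 Primary sum assumed to vary like the others (77 and 2 for Primary minus Pre-MET and Primary minus MET), the block for MET minus Distal normal tissue, and the test relative to T and NK cells (2, 32, 6 and 6 in the order above). The cause was not tested. Leaving out 1 sum at a time gave 0 to 3, 237 to 290, 16 to 56, 4 to 71 and, for Relapse-free minus Normal, 0.

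With the mouse as a replicate block Primary minus Pre-MET gave 208 genes, 120 higher, and beside the losses given above Gbp2 lost its call (2.40, adjusted p = 0.192). No call of another gene named in the text changed with it. In shares of monocytes the block gave 34.0 points for Primary minus Pre-MET (3 of 3 mice, exact sign-flip permutation p = 0.25, the smallest possible) and 2.23 points for MET minus Distal normal tissue (10 of 13 mice, permutation p = 0.177). For MET minus Distal normal tissue at a minimum of 5 cells, with 4 shared mice, the block left 0 called genes and 57 at an unadjusted p under 0.05, against 0 and 76 without it. The remaining expression comparisons shared fewer than 2 mice.

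Shares reversed to 0.541 (Pre-MET minus Normal) and 1.03 points (MET minus Relapse-free) with all immune cells as the denominator, and Relapse-free minus Normal to 1.04 without Normal mouse 2. Leaving out 1 sample gave -11.0 to -7.33 for Pre-MET minus Normal, 34.0 to 40.8 for Primary minus Pre-MET, 30.9 to 37.7 for Primary minus MET, -2.59 to 1.04 for Relapse-free minus Normal and 28.7 to 35.5 for Primary minus MET Core.

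Relative to T and NK cells, fold changes of Primary minus Pre-MET reversed for Aif1 (-0.13), C1qb (-2.73), Ccl6 (0.74), Cd74 (-0.35), Fcgr1 (-2.05), Gm11285 (0.0209), Gm4525 (0.57), H2-Aa (-1.05), H2-Ab1 (-0.46), Isg15 (-3.86), Lgmn (-1.78), Ms4a4c (-0.80), Pkm (-0.33) and Tpi1 (-2.15), and those of Primary minus MET for Cd74 (-1.49), H2-Ab1 (-0.68), H2-Eb1 (-0.47), Irf7 (-0.46), Ms4a4c (-0.40), Nr4a1 (1.04) and S100a8 (0.48). Library totals moved the median of all genes from 0.04 to -0.14 (Primary minus Pre-MET) and to -0.16 (Primary minus MET). A minimum of 20 cells and MET comparisons in cells of at least 1000 UMIs left too few sums and were not run. Depth limits the small sums most, where 1 UMI of 14098 is 70.9 CPM.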

Other observations

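MET Core sums, of mice 31 and 36, each from at least 10 MHC-II monocytes, can be set beside the MET sums of the same mice, without a test and with different gates (GFP+ against CD45+). The core of mouse 31 came from SB124 and its section from SB124 and SB128, while both sums of mouse 36 came from SB128. The core of mouse 31 held only 15372 UMIs from 11 cells, so that its lower values rest on few UMIs. The genes were chosen after their values were seen, for a difference between core and section in both mice. Plac8 was at 585 and 1867 CPM in the cores against 4394 and 3141 CPM in the sections of mice 31 and 36, and Gngt2 at 651 and 660.3 against 1837 and 1805 CPM. Clec4n was at 1236 and 683 CPM against 399 and 126 CPM, Pkm at 1366 and 1594 against 399 and 794 CPM, and Lgals3 at 3903 and 3461 against 1811 and 1119 CPM. The core values of Mmp12 were 260.2 and 228 CPM, against 133 and 0 CPM in the sections. Other genes did not follow one direction, as the 40 genes of the type I interferon list summed to 5725 and 11385 CPM in the cores against 17656 and 10777 CPM in the sections.

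Apoe, which binds lipoproteins and marks lipid-handling macrophages, followed another order of tissues. With 500 UMIs kept per cell it was seen in 59.0% of the MHC-II monocytes of Normal and 55.2% of those of Relapse-free lungs, but in 25.0% of those of Pre-MET lungs and 25.0% of those of Primary tumors, with Distal normal tissue at 38.2% and MET sections at 29.0%. MET Core stood at 32.2% and the Invasive margin at 34.4%. The cells of a status come from several mice and differ in number and in sequencing batch, so that no test was made.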
